A study of Danio rerio with 36 samples.

Results

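The gene hsp70l (ENSDARG00000055723) encodes an inducible member of the HSP70 family of zebrafish, and its values are described here in every library of both exposure series. It was taken as the row of this identifier, 1 of 25856 genes in the table of the BPA series and 1 of 26639 genes in the table of the TBBPA series. It was chosen by its normalized counts in these same libraries, so its levels and fold changes are a description and carry no test.

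Zebrafish larvae of AB/Tub hybrid stock were exposed from 72 to 120 h postfertilization. The chemical was bisphenol A (BPA) or its brominated relative tetrabromobisphenol A (TBBPA, a flame retardant). The concentrations were 0.00483, 0.0483, 0.483, 4.83 and 48.3 µM BPA and 0.000292, 0.00292, 0.0292, 0.292 and 2.92 µM TBBPA, the highest of each being the EC20 that the study had set beforehand. Each series had its own carrier control (CC), kept in 0.5% DMSO per the methods of the study, and each of the 12 groups had 3 libraries. A library was a pool of 20 whole larvae that looked normal, and the 3 repeats were separate runs with different clutches.

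HSP70 proteins are ATP-driven chaperones that hold unfolded stretches of other proteins and release them to refold. HSP40 proteins bring substrates to them, while HSP110 and BAG family proteins and related factors exchange their nucleotide. Heat and other stresses that unfold proteins release heat shock factor 1, which then binds heat shock elements in front of inducible HSP70 genes. In zebrafish, hsp70l is the classical gene of this kind, its promoter is used to drive transgenes by heat, and without stress it is known for expression in the developing lens.

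The libraries held 6056692 to 16520859 reads on genes in the BPA series and 7865327 to 11478099 in the TBBPA series. Replicate 3 at 4.83 µM BPA and replicate 2 of the BPA control stood apart. Chi-square per degree of freedom against the other libraries of the same group was 27.3 and 31.9 for the library at 4.83 µM. It was 22.3 and 26.8 for the control. Calls that depend on these libraries are given below without them. Replicate 1 at 48.3 µM BPA also differed from replicates 2 and 3 of its group (20.7 and 15.7), against 7.27 between those. Results without replicate 1 of all groups are given below too. The markers elavl3 (neurons), krt4 (surface skin), fabp10a (liver) and CRYAA (lens) were above 0 in all 36 libraries, and the heart markers myl7 and cmlc1 were low throughout (at most 106 normalized counts).

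Larvae at 48.3 µM BPA held about 15 times the hsp70l level of their carrier control. Normalized counts, the deposited values scaled for library size, were 956, 1020.3 and 1655 in replicates 1, 2 and 3 at 48.3 µM BPA, against 81.0, 90.3 and 71.4 in the CC. All 3 exposed libraries lay far above all 3 control libraries, and replicate 3 was the highest of the exposed libraries while its own control was the lowest of the controls. The means were 1210.2 ± 386 at 48.3 µM BPA and 80.9 ± 9.42 in the CC (SD, n = 3 each). Taken within replicates, the ratio was 11.8 in replicate 1, 11.3 in replicate 2 and 23.2 in replicate 3, a mean log2 difference of 3.85 ± 0.58 (SD, n = 3). Groups that did not overlap, in either direction, were found for 35.4% of the 17248 genes tested in this comparison, and 22 of these genes had a larger log2 difference than hsp70l. The liver marker fabp10a had 1426, 230.3 and 469 normalized counts at 48.3 µM BPA, against 1937, 2720 and 2188 in the CC, all exposed libraries below all controls, and its part in the hsp70l level was not tested. In pools of whole larvae, more RNA per cell and more cells with the RNA cannot be told apart.

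No lower concentration of BPA set hsp70l apart from its control. At 4.83 µM BPA the counts were 67.5, 57.2 and 96.0, against 81.0, 90.3 and 71.4 in the CC. At 0.483 µM they were 87.1, 71.1 and 64.2. Both groups overlapped the CC, and the highest value at 4.83 µM was that of the library that stood apart. At 0.0483 µM the counts were 98.2, 63.8 and 82.5. At 0.00483 µM they were 107, 61.8 and 73.2. Both again overlapped the control, with replicate 1 the highest of its group and replicate 2 the lowest.

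In order of their means, the BPA groups ran 4.83 µM (73.6), 0.483 µM (74.1), 0.00483 µM (80.5), CC (80.9), 0.0483 µM (81.5) and 48.3 µM (1210.2). Each neighbouring pair below 48.3 µM overlapped, and their means differed by 0.399 to 6.41 normalized counts, less than the SD within any of those groups. The 15 libraries below 48.3 µM spanned 57.2 to 107 with a median of 73.2 and a coefficient of variation of 19.1%. The step between 4.83 and 48.3 µM was therefore the only one without overlap, and no concentration between them was sampled. Within replicates, the log2 differences at 4.83 µM were -0.26, -0.65 and 0.42, averaging -0.16, or -0.46 without replicate 3. Without the control replicate 2 the log2 difference at 48.3 µM was 4.05.

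**Figure D1:**
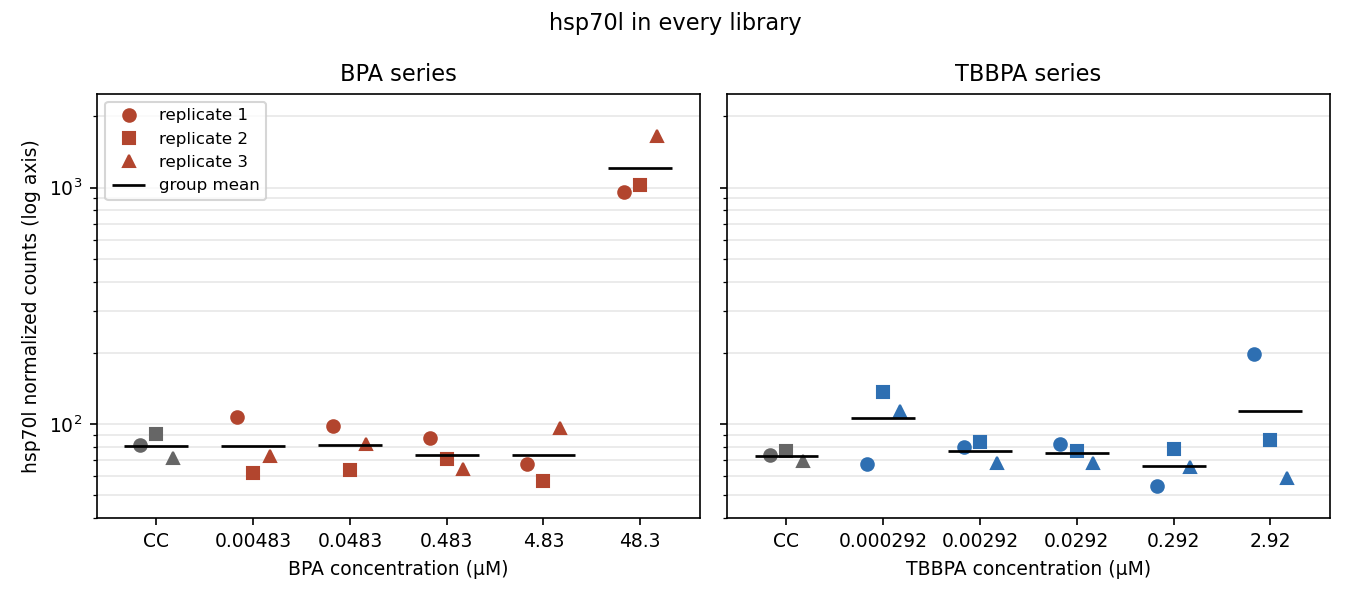
Normalized counts of hsp70l (log axis) in each of the 36 libraries, by concentration of BPA (left) and TBBPA (right), with the carrier control (CC) in grey at the low end; symbols mark the replicate number and bars the group mean. The 3 libraries at 48.3 µM BPA lay between 956 and 1655, the other 15 of that series between 57.2 and 107, and at 2.92 µM TBBPA replicate 1 alone reached 197.

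In the TBBPA series single libraries stood out rather than a whole group. At 2.92 µM TBBPA hsp70l had 197, 85.4 and 59.3 normalized counts in replicates 1, 2 and 3, against 73.7, 76.8 and 69.7 in the CC. One exposed library was above all controls by a wide margin, one was slightly above them and one was below them, so the groups overlapped. The means were 113.8 ± 73.1 at 2.92 µM TBBPA and 73.4 ± 3.59 in the CC (SD, n = 3 each), with a coefficient of variation of 64.2% among the exposed libraries and 4.89% among the controls. The mean log2 difference within replicates was 0.44 ± 0.86 (SD, n = 3), and 1053 of 18400 genes tested had a larger one. Without replicate 1 it was -0.04. The value of replicate 1 came from 210 reads, whose exact Poisson interval at 95% spans 171 to 225 normalized counts. That interval covers counting error only, and it lies above those of all other libraries of the series, the highest of which reached 161.

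Single libraries were also high at the lowest concentration of TBBPA. At 0.000292 µM hsp70l had 67.7, 136 and 114 normalized counts, against 73.7, 76.8 and 69.7 in the CC. Replicates 2 and 3 were above every control library and replicate 1 below every one. The mean was 105.9 ± 34.9 (SD, n = 3), with log2 differences within replicates of -0.12, 0.82 and 0.70, averaging 0.47 ± 0.51.

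The other 3 concentrations of TBBPA stayed near the control. At 0.00292 µM the counts were 79.4, 83.6 and 68.1. At 0.0292 µM they were 82.4, 76.5 and 68.0. At 0.292 µM they were 54.7, 78.3 and 65.7, and all 3 groups overlapped the CC. In order of their means the groups ran 0.292 µM (66.2), CC (73.4), 0.0292 µM (75.6), 0.00292 µM (77.0), 0.000292 µM (105.9) and 2.92 µM (113.8), and every neighbouring pair overlapped. The concentrations of the chemicals differ and their tables were normalized separately, so no level or response is compared between BPA and TBBPA.

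The nearest relatives of hsp70l are the other stress-inducible HSP70 genes, and at 48.3 µM BPA hsp70.1 rose to 21.2 times and hsp70.3 to 24.5 times the mean of the CC. For genes other than hsp70l, differences were tested with limma on log2(normalized count + 1) over all 17248 genes of the BPA series, and a gene was called at a Benjamini-Hochberg adjusted p below 0.05 and a change of at least 1.5-fold. Of the genes tested, 7.07% were called higher and 6.93% lower at 48.3 µM BPA. The gene hsp70.1 had 569, 494 and 709 normalized counts at 48.3 µM BPA, against 34.7, 28.1 and 20.9 in the CC. Its log2 fold change was 4.37 ± 0.35 (SE) with a limma adjusted p of 2.76e-06. The gene hsp70.3 had 499, 360.3 and 561 normalized counts at 48.3 µM BPA, against 20.3, 25.6 and 12.1 in the CC. Its log2 fold change was 4.58 ± 0.48 (SE) with a limma adjusted p of 2.35e-05. In both genes every exposed library lay far above every control library, with replicate 3 the highest at 48.3 µM BPA and the lowest in the CC, as it was for hsp70l. The sequences of inducible HSP70 genes are close, and reads that fit several copies are dropped or misplaced in counting, so the level of any single copy is uncertain.

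Of the 10 other HSP70 family genes tested, 5 rose and 1 fell at 48.3 µM BPA. Their median change was 0.48 on the log2 scale, against -0.02 over all genes tested. Without the control replicate 2, 3 rose and none fell. HSPA5, the HSP70 of the endoplasmic reticulum (ER, also called BiP), averaged 3481 ± 233 normalized counts at 48.3 µM BPA and 1265 ± 94.7 in the CC (SD, n = 3 each). Its log2 fold change was 1.46 ± 0.12 (SE; limma adjusted p = 3.67e-06), and its groups did not overlap. The gene hspa1b, of the same family, had 75.0, 40.9 and 45.9 normalized counts at 48.3 µM BPA, against 26.0, 24.4 and 21.7 in the CC (log2 fold change 1.09, limma adjusted p = 0.0345). All exposed libraries of hspa1b were above its controls, but its call was lost without the control replicate 2 alone (limma adjusted p = 0.0551) and without any single replicate number (0.0857 to 0.179).

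The constitutive relatives did not move together. The symbol HSPA8, the constitutive cytosolic HSP70, belongs to 2 genes. ENSDARG00000037403 averaged 110.5 ± 9.61 normalized counts at 48.3 µM BPA and 71.1 ± 26.1 in the CC (log2 fold change 0.69, limma adjusted p = 0.0406), and this call was also lost without any single replicate number (limma adjusted p from 0.0624 to 0.470) and without the control replicate 2 alone (0.178). ENSDARG00000068992 averaged 11842 ± 2365 at 48.3 µM BPA and 12612 ± 1814 in the CC (log2 fold change -0.10, limma adjusted p = 0.703). A gene named hsc70 fell, with 1838, 1326 and 1315 normalized counts at 48.3 µM BPA, against 1860, 3531 and 2289 in the CC (log2 fold change -0.74, limma adjusted p = 0.0242). Its control replicate 2 was by far the highest library, and without that library alone the log2 fold change was -0.45 (limma adjusted p = 0.116). The call of hsc70 was also lost without replicate 2 or replicate 3 of all groups, and with only the 2 groups fitted. HSPA9 of the mitochondria (0.28), HSPA14 of the ribosome (0.22) and HSPA13 (0.05) had log2 fold changes that did not pass the test (limma adjusted p = 0.105, 0.610 and 0.914).

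**Figure D2:**
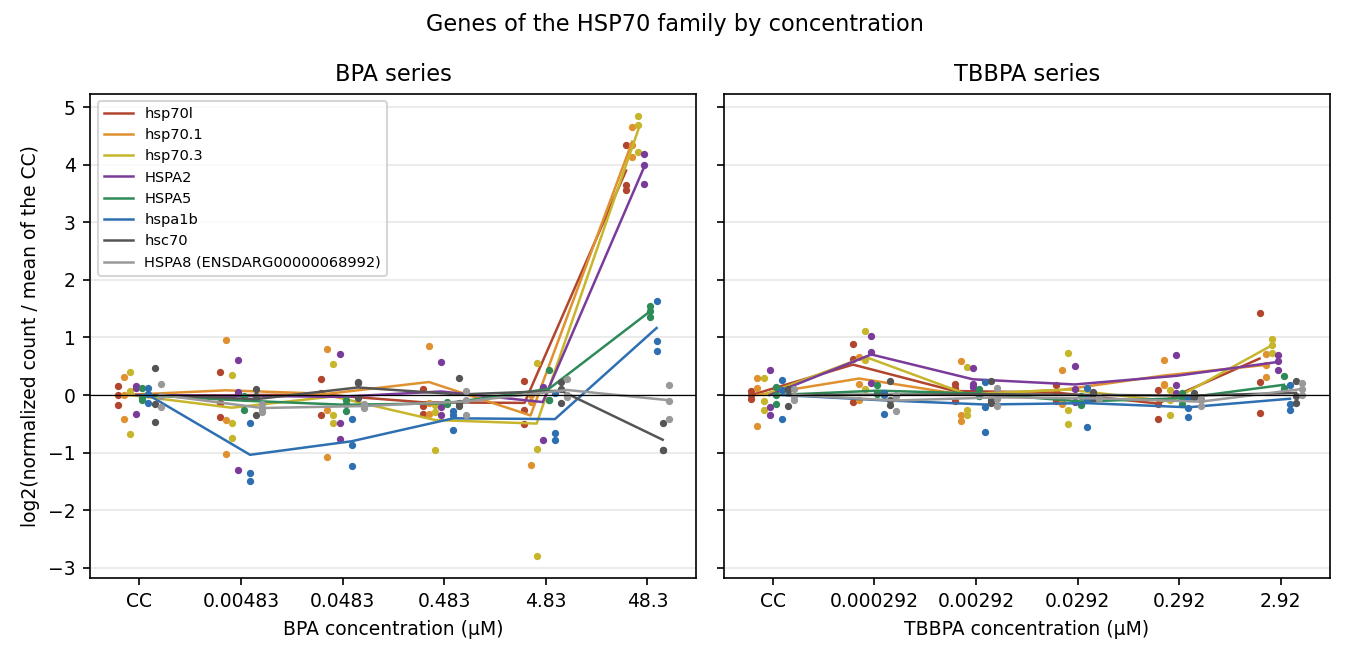
log2 of the normalized count over the mean of the carrier control (CC) for hsp70l and other genes of the HSP70 family, by concentration of BPA (left) and TBBPA (right); points are libraries, slightly offset by gene, and lines join group means. At 48.3 µM BPA the lines of hsp70l, hsp70.1, hsp70.3 and HSPA2 end together at about 4 or above, HSPA5 and hspa1b end above 1, and hsc70 ends below 0.

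At 2.92 µM TBBPA none of the 10 other HSP70 family genes tested was called by limma, edgeR or DESeq2, and 3 had an unadjusted limma p below 0.05, against 0.859% called (0.658% higher and 0.201% lower) and 19.8% with such a p over all 18400 genes. The gene hsp70.3 had 39.4, 33.1 and 36.6 normalized counts at 2.92 µM TBBPA, against 16.6, 24.7 and 18.7 in the CC (log2 fold change 0.85 ± 0.28 SE, limma adjusted p = 0.101). The gene hsp70.1 had 39.4, 29.9 and 34.5 normalized counts at 2.92 µM TBBPA, against 26.2, 29.4 and 16.6 in the CC (log2 fold change 0.53 ± 0.24 SE, limma adjusted p = 0.216). Both genes had every exposed library above every control library, and groups without overlap in either direction were found for 20.1% of all genes tested here. Replicate 1 was the highest exposed library of both, but within 33.1 to 39.4 for hsp70.3, while hsp70l spanned 59.3 to 197.

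Among 16 genes of HSP110 and nucleotide exchange, the partners of HSP70, 3 rose and 1 fell at 48.3 µM BPA, against 7.07% higher and 6.93% lower over all genes tested, and the median on the log2 scale was 0.15. HYOU1, the HSP110-like chaperone of the ER, rose by 1.46 on the log2 scale (limma adjusted p = 2.00e-04), and SIL1, the exchange factor of HSPA5, by 0.94 (limma adjusted p = 0.0318). HSPH1, the cytosolic HSP110, rose by 0.84 (limma adjusted p = 0.0488). HSPA4L, another HSP110 relative, fell: it had 506, 396 and 563 normalized counts at 48.3 µM BPA, against 1185, 1181 and 1067 in the CC (log2 fold change -1.24, limma adjusted p = 1.04e-05). The calls of SIL1 and HSPH1 were lost without any single replicate number (limma adjusted p of 0.068 or above) and without the control replicate 2 alone (0.0593 for SIL1 and 0.0531 for HSPH1), while those of HYOU1 and HSPA4L were kept.

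Among 20 HSP40 genes at 48.3 µM BPA, 3 rose and 1 fell, with a median of -0.05, and the 4 called compare with 14.0% of all genes tested. The gene dnajb1b, a heat-inducible cytosolic HSP40, averaged 134 ± 14.3 normalized counts at 48.3 µM BPA and 36.2 ± 8.41 in the CC (log2 fold change 1.88, limma adjusted p = 0.00564). Its groups did not overlap, although without replicate 1 or 2 its limma adjusted p was 0.0718 or 0.0613. The gene dnaja rose by 1.00 (limma adjusted p = 0.00162) and the ER gene dnajc3b by 0.64 (limma adjusted p = 0.0446), whereas DNAJB4 fell by 0.73 on the log2 scale (limma adjusted p = 0.0108). Without replicate 1 the limma adjusted p of DNAJB4 was 0.154, and its call was also lost without replicate 3. The limma adjusted p of dnajc3b was 0.128 to 0.159 without any single replicate number and 0.114 without the control replicate 2 alone.

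Of 24 HSP90 and co-chaperone genes, 1 rose and 1 fell at 48.3 µM BPA (median 0.11), a smaller share than the 14.0% called over all genes. HSP90B1, the HSP90 of the ER, rose by 0.99 (limma adjusted p = 2.23e-04), and FKBP5, a co-chaperone of steroid hormone receptors and a glucocorticoid-responsive gene, fell by 1.68 on the log2 scale (limma adjusted p = 0.00422, or 0.0701 without replicate 2). Small heat shock proteins hold unfolded proteins without ATP, and 4 of their 11 genes matched were high enough to test. HSPB1 averaged 536 ± 14.2 normalized counts at 48.3 µM BPA and 136 ± 16.5 in the CC (log2 fold change 1.98, limma adjusted p = 1.86e-05). The gene hspb6, an abundant small heat shock protein of muscle in mammals, fell by 1.24 on the log2 scale (limma adjusted p = 0.00331), and without replicate 2 its limma adjusted p was 0.072.

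Outside the cytosol, 10 of 21 ER chaperone genes tested rose and none fell at 48.3 µM BPA, against 7.07% higher and 6.93% lower over all genes tested. Their median was 0.71 on the log2 scale, and edgeR and DESeq2 each called 11. Besides HSPA5, HYOU1, HSP90B1 and dnajc3b these included XBP1, a transcription factor of the unfolded protein response of the ER, which had 2242, 2396 and 1986 normalized counts at 48.3 µM BPA, against 817, 987 and 701 in the CC (log2 fold change 1.41, limma adjusted p = 2.15e-05). Of 13 mitochondrial chaperones and proteases 4 rose and none fell (median 0.15), against the same shares of all genes. The 4 included the chaperonin HSPD1 (0.77, limma adjusted p = 6.15e-05) and the protease subunits CLPP (0.78, limma adjusted p = 0.0115) and CLPX (0.75, limma adjusted p = 0.0388). Without replicate 1 the limma adjusted p was 0.131 for CLPP and 0.186 for CLPX, and without the control replicate 2 alone that of CLPX was 0.161. The calls of CLPP and CLPX were also lost without replicate 2 of all groups. None of the 14 genes of the cytosolic chaperonin TRiC and of prefoldin was called by limma, edgeR or DESeq2, and 3 of them had an unadjusted limma p below 0.05 (median 0.10), against 30.9% of all genes tested.

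Of the heat shock factors and their binding proteins, 5 genes were tested: hsf1, HSF2 and the binding protein genes hsbp1b, HSBP1 and HSBP1L1. HSF2 fell by 0.64 on the log2 scale (limma adjusted p = 0.00405), a call lost without the control replicate 2 alone, when the log2 fold change was -0.49. This call was also lost without replicate 2 of all groups. The gene hsf1, whose protein is activated by heat, had 156, 169.6 and 171 normalized counts at 48.3 µM BPA, against 141, 86.6 and 148 in the CC. Every exposed library of hsf1 was above every control library, with a log2 fold change of 0.44 that did not pass the test (limma adjusted p = 0.439); hsf1 and the binding proteins are named outside the rule for named genes and after their values were seen.

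Over all 120 chaperone and heat shock genes tested besides hsp70l, 24 rose and 6 fell at 48.3 µM BPA, against 7.07% and 6.93% of all genes tested. Their median log2 fold change was 0.16, against -0.02 over all genes, and 78 lay above 0. Without replicate 3 at 4.83 µM 28 rose and 7 fell, and without the control replicate 2 alone 21 rose and 5 fell. With whole replicate numbers left out, 14 rose and 5 fell without replicate 1, 14 rose and 2 fell without replicate 2, and 23 rose and 4 fell without replicate 3. The calls over all 17248 genes tested changed as well: 1219 rose and 1195 fell with all libraries. The counts were 1550 and 2009 without replicate 3 at 4.83 µM, and 1237 and 1082 without the control replicate 2 alone. Without replicate 1 they were 567 and 650. They were 609 and 560 without replicate 2, and 1019 and 1380 without replicate 3. Among 27 tested genes of a heat-inducible list, 10 rose and 1 fell (median 0.53). That list also held hsc70 and both HSPA8 genes, described above as constitutive relatives. The 1 that fell was hsc70, and HSPA8 (ENSDARG00000037403) was among the 10 that rose. On this list 4 rose and 1 fell without replicate 1, 5 and 0 without replicate 2, and 9 and 0 without replicate 3. Without the control replicate 2 alone 8 rose and 0 fell. None of these 27 came within a log2 unit of hsp70l except hsp70.1 and hsp70.3, while BAG3 (0.05), the second HSPA8 gene (-0.10) and hsp90aa1.1 (0.33), all on that list, did not pass the test (limma adjusted p = 0.887, 0.703 and 0.141); BAG3 and hsp90aa1.1 were named after their values were seen.

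**Figure D3:**
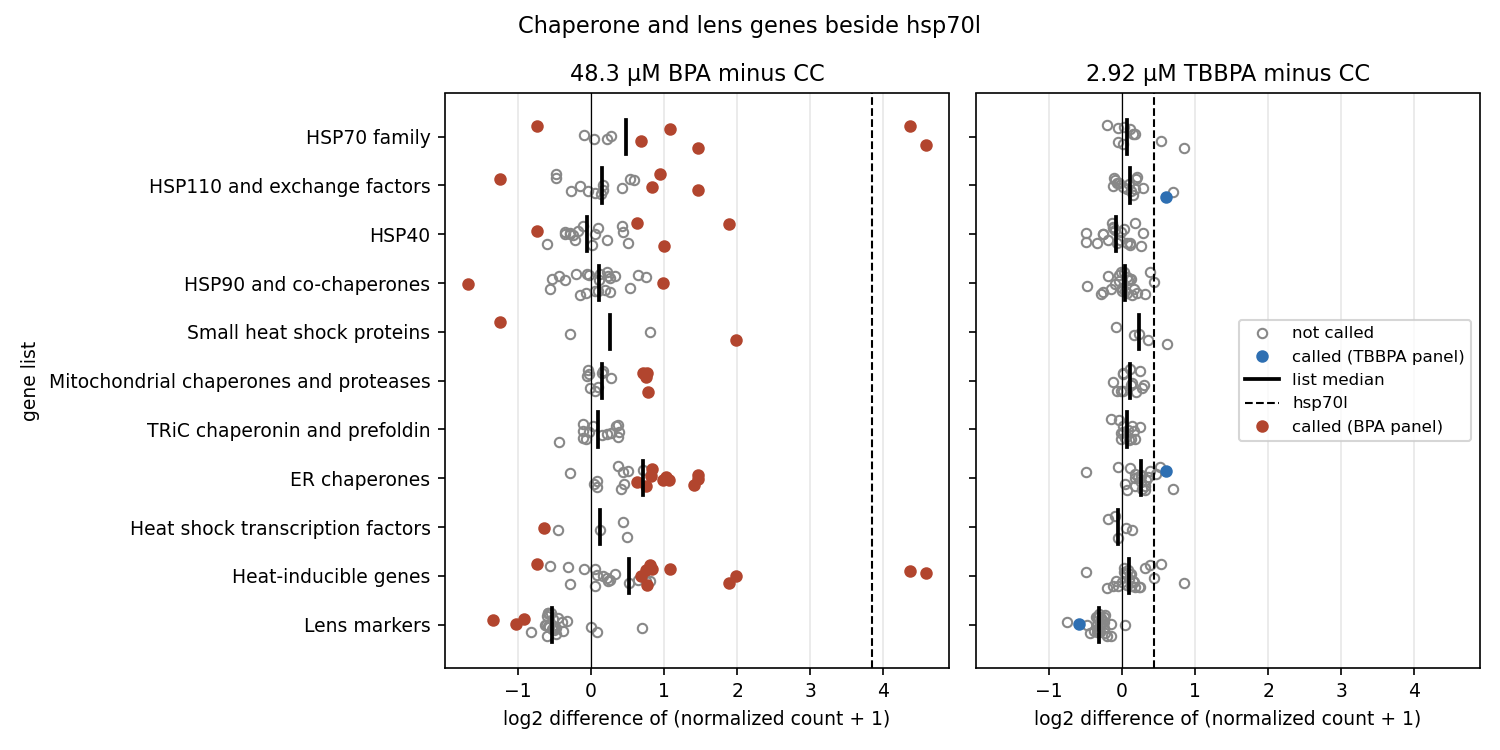
log2 difference of (normalized count + 1) for every tested gene of 11 lists at 48.3 µM BPA minus its CC (left) and 2.92 µM TBBPA minus its CC (right); filled points passed the call, bars are list medians and the dashed line is hsp70l, which is left out of the lists. On the left only hsp70.1 and hsp70.3 lie beyond hsp70l (3.85), and on the right HYOU1 is the filled point among the chaperones and CRYAA that among lens genes.

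At 2.92 µM TBBPA 1 of the 122 chaperone and heat shock genes tested was called, against 0.859% of all genes. It was HYOU1, with 240.0, 236 and 279 normalized counts at 2.92 µM TBBPA, against 169, 149 and 180 in the CC (log2 fold change 0.60 ± 0.11 SE, limma adjusted p = 0.00694). All its exposed libraries were above its controls, but without replicate 1 its limma adjusted p was 0.0755, without replicate 3 it was 0.0719, and without replicate 2 its log2 fold change of 0.57 was short of 1.5-fold. The median over the 122 genes was 0.07, against -0.01 over all genes. The 22 ER chaperones tested had a median of 0.26, and 14 of them had an unadjusted limma p below 0.05, against 19.8% of all genes tested. These genes were measured in the same pools, so the 14 are not separate observations. XBP1 (0.27, limma adjusted p = 0.038) and HSP90B1 (0.31, limma adjusted p = 0.0166) passed on p but not on the 1.5-fold change.

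Below the highest concentrations no gene of these lists was called. By limma, edgeR and DESeq2 alike the count was 0 at each of the 4 lower concentrations of BPA and of TBBPA. An unadjusted limma p below 0.05 was reached by 2, 3, 1 and 3 of the 120 genes at 0.00483, 0.0483, 0.483 and 4.83 µM BPA, against 1.22%, 1.21%, 1.62% and 2.96% of all genes tested. It was reached by 7, 5, 6 and 9 of the 122 genes at 0.000292, 0.00292, 0.0292 and 0.292 µM TBBPA, against 6.94%, 3.78%, 5.08% and 5.25% of all genes tested. Over all genes tested, limma called 0.00% at each of these concentrations except 0.000292 µM TBBPA, where 0.0272% were called, all of them lower.

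Over the 18 BPA libraries, the genes whose pattern was most like that of hsp70l were JUN (Pearson r = 0.98), cxcl18b (0.979), HSPA2 (ENSDARG00000092362, 0.977), hsp70.1 (0.976) and TIMP2 (0.973), on log2(normalized count + 1). JUN encodes a subunit of the AP-1 transcription factor, cxcl18b a chemokine that attracts neutrophils in zebrafish, and TIMP2 an inhibitor of matrix metalloproteinases. The most opposite were si:dkey-175g6.2 (-0.972), SYT9 (-0.967), a synaptotagmin of vesicle release, and SLC7A10 (-0.962), an amino acid transporter. These values rest, to a differing extent, on the 3 libraries at 48.3 µM, which the genes share. Over the other 15 libraries r was 0.313 for JUN, 0.407 for TIMP2 and 0.625 for cxcl18b, but still 0.806 for HSPA2 and 0.851 for hsp70.1. Of the 17247 other genes tested, 3312 had an r above 0.5 with hsp70l over the 18 libraries, and so did 48 of the 120 chaperone and heat shock genes.

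HSPA2, a symbol given here to a further HSP70 gene that was not on the family list, had 830.2, 656 and 949 normalized counts at 48.3 µM BPA, against 57.9, 56.1 and 40.9 in the CC. Its exposed libraries lay far above its controls, with a ratio of means of 15.7, and since it was chosen for its likeness to hsp70l no test is given. JUN had 2051, 2316 and 2230 normalized counts at 48.3 µM BPA, against 507, 554 and 504 in the CC, with no overlap and a log2 fold change of 2.07.

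Over the 18 TBBPA libraries other genes led. There hsp70l spanned 54.7 to 197 normalized counts, against 57.2 to 1655 in the BPA series, so the sizes of r are not compared. The highest were mrpl36 (r = 0.797), a protein of the mitochondrial ribosome, BIN3 (0.776), POFUT1 (0.75), which adds fucose to Notch receptors, mtfr2 (0.739) and si:dkey-224e22.2 (0.722). The most opposite were TMEM87B (-0.771), si:dkey-14d8.21 (-0.76) and VPS4A (-0.752), an ATPase of endosomal sorting. Without the 3 libraries at 2.92 µM, r was 0.47 for mrpl36, 0.511 for BIN3, 0.553 for POFUT1, 0.683 for mtfr2 and 0.632 for si:dkey-224e22.2. The gene hsp70.3 had an r of 0.528 with hsp70l and hsp70.1 one of 0.469, and 3 of the 122 chaperone and heat shock genes were above 0.5, a share close to that of all genes, 391 of the 18399 other genes tested.

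**Figure D4:**
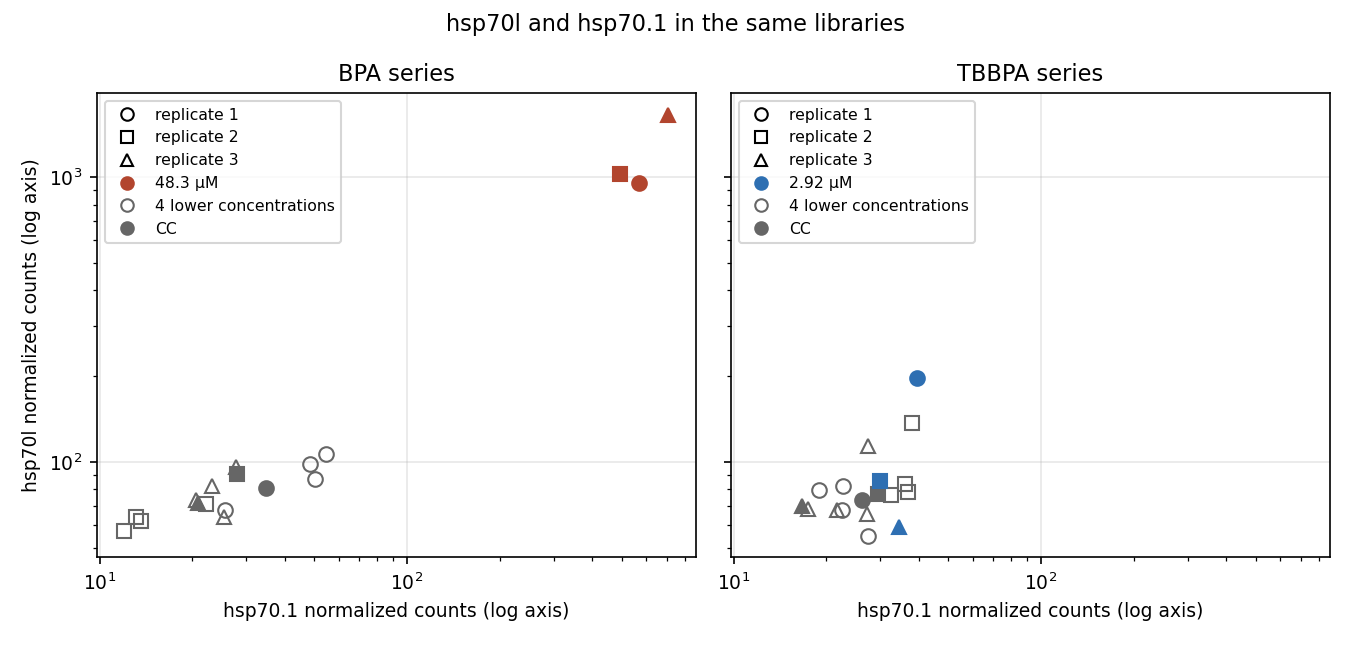
Normalized counts of hsp70l (vertical) and hsp70.1 (horizontal), both on log axes, in the same library for the BPA series (left) and the TBBPA series (right); symbols give the replicate number, coloured points the highest concentration and grey points the CC. At 48.3 µM BPA the 3 libraries lie far up both axes, and at 2.92 µM TBBPA replicate 1 is high for hsp70l (197) but not far from its group for hsp70.1 (39.4).

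Because hsp70l is known from the lens, lens genes were measured beside it. The summed level of 33 lens genes was 114650, 53381 and 73239 normalized counts at 48.3 µM BPA, against 88928, 232408 and 67446 in the CC. The groups overlapped and the control replicate 2 was by far the highest, so that within replicates the median log2 difference of lens genes was 0.24, -2.18 and 0.18 while that of hsp70l was 3.54, 3.48 and 4.51. Of 28 lens genes tested none rose and 3 fell at 48.3 µM BPA by limma, against 6.93% lower over all genes, with a median of -0.54, while edgeR called 1 and DESeq2 called 2. Without the control replicate 2 alone the median was 0.10, and 1 lens gene was called higher and none lower. One of the 3 that fell with all libraries was CRYAA, the lens alpha-crystallin, whose call was thus lost without that control library. It had 247, 56.96 and 42.3 normalized counts at 48.3 µM BPA, against 232, 384 and 112 in the CC (log2 fold change -1.34, limma adjusted p = 0.0256 with all libraries). Within replicates at 0.00483 µM BPA the median log2 differences of lens genes were 1.16, -1.07 and 0.35, and those of hsp70l 0.39, -0.54 and 0.035. Lens and hsp70l differences also had the same sign in every replicate at 0.0483 µM. Signs differed in replicate 3 at 0.483 µM (0.37 and -0.15) and in replicate 1 at 4.83 µM (0.82 and -0.26). All these differences share the same 3 control libraries. At 2.92 µM TBBPA the sums were 104267, 104492 and 63960, against 114510, 126648 and 85972 in the CC. Of 28 lens genes tested 1, CRYAA, was called lower by limma (log2 fold change -0.59, limma adjusted p = 0.0337), against 0.201% of all genes, and none by edgeR or DESeq2. The change was not limited to CRYAA: the median of the 28 was -0.31 and only 1 lay above 0. The sums of the 2 groups overlapped, however. Of the 28 genes, CRYAA included, 0 had every exposed library below every control library, against 9.59% of all genes tested. An unadjusted limma p below 0.05 was reached by 20 of the 28, against 19.8% of all genes tested. These genes were measured in the same pools, so the 20 are not separate observations. The library with 197 normalized counts of hsp70l, replicate 1 at 2.92 µM TBBPA, had about the same lens sum as replicate 2. At 0.000292 µM TBBPA the lens sums were 129208, 175326 and 105241. All 28 lens genes lay above 0 there (median 0.29), 19 with an unadjusted limma p below 0.05, against 6.94% of all genes. Replicate 2 was also the highest of that group for hsp70l (136). At 0.00292, 0.0292 and 0.292 µM TBBPA the lens medians were 0.24, 0.22 and 0.20, while hsp70l averaged 0.06, 0.04 and -0.16. Within replicates, lens and hsp70l signs differed at 2.92 µM TBBPA in replicate 1 (-0.095 and 1.41) and replicate 2 (-0.33 and 0.15). At 0.292 µM they differed in replicate 1 (0.44 and -0.42) and replicate 3 (0.056 and -0.083). They also differed in replicate 3 at 0.0292 and 0.00292 µM and in replicate 1 at 0.000292 µM. In the remaining TBBPA replicates the signs were the same. The part of lens RNA in the hsp70l level was not tested.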

How the data were processed

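Per the methods of the study, poly(A) RNA from pools of whole larvae was sequenced with a stranded kit, reads were trimmed with cutadapt, aligned to GRCz11 and counted per gene with STAR, and divided by DESeq2 size factors. The deposited signal, 1 table per series, thus holds normalized counts. All values in each library were whole multiples of the value of 1 read (within 0.01 reads), so whole reads were recovered for count-based tests; for 1 library of each series a read was worth almost exactly 1, so rounding could give the same.

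Genes with a mean of at least 10 were tested with limma 3.58.1 (trend), each series on its own with all 18 libraries, on log2(value + 1). The model had a replicate block, as the study's did. Replicates were repeats with different clutches per the study; deviations of same-numbered libraries correlated with a median r of 0.115 (BPA) and 0.166 (TBBPA), against -0.0567 and -0.079 between other numbers. p-values were adjusted over all genes tested. The labels name the carrier control as 0.5% of the chemical, and the methods as DMSO. Alternatives were a pseudocount of 10, no filter, a mean of at least 25, no block, 2 groups only, TMM scaling, edgeR 4.0.16, DESeq2 1.42.0 and libraries left out; leaving out replicate 2 of the BPA control was added after seeing the data. No pair of libraries of the same group agreed within sampling noise. The tests were tried on simulated data with known changes at the highest concentration. There limma called 46% of 2-fold and 83% of 4-fold changes in the BPA series. In the TBBPA series it called 82% and 96%. Of its calls, 4.44% (BPA) and 1.66% (TBBPA) were false. A gene that was not called can therefore still have changed, above all by 2-fold or less in the BPA series. Depth was 6056692 to 16520859 reads on genes.

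The gene and the lists were chosen with earlier results of these data known. Named genes were hsp70l, all tested members of the HSP70 list, up to 3 risers and 2 fallers of each other list at 48.3 µM BPA, chaperones called at 2.92 µM TBBPA, and the 5 most alike and 3 most opposite genes by Pearson r. Promoter motifs were not analysed here. Symbols came from a table of gene IDs that matched 23843 of 25856 and 24487 of 26639 genes.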

Additional observations from a re-analysis of the deposited data

How the results depend on the processing

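At 48.3 µM BPA the log2 difference of hsp70l ran between 3.51 and 4.03 when 1 replicate number was left out and was 3.71 with a pseudocount of 10 and 4.05 without the control replicate 2. At 2.92 µM TBBPA it was 0.44, and -0.04 without replicate 1 and 0.78 without replicate 3. The number of chaperone and heat shock genes called at 48.3 µM BPA was 30 as reported and 26 to 35 under the other alternatives. It was 16 to 27 when 1 replicate number was left out (19 without replicate 1 and 16 without replicate 2, where fewer of all genes were called too). At 2.92 µM TBBPA it was 1, and 0 with a pseudocount of 10, where HYOU1 fell short of the fold; it was 0 to 1 when 1 replicate number was left out, and the gene called without replicate 1 was hsp90aa1.1 (log2 fold change 0.59, limma adjusted p = 0.0287), not HYOU1. Without the replicate block 26 chaperone genes were called at 48.3 µM BPA and 1 at 2.92 µM TBBPA. Of 23 named genes called at 48.3 µM BPA, 10 kept the call under all alternatives (hsp70.1, hsp70.3, HSPA5, HYOU1, HSPA4L, dnaja, HSP90B1, HSPB1, HSPD1 and XBP1) and 13 lost it under at least 1; none changed sign. Without the block HSPA8 (ENSDARG00000037403) and FKBP5 lost the call (limma adjusted p = 0.142 and 0.0823). The cause of these losses was not tested, apart from the smaller number of libraries where some are left out. Outside the highest concentrations hsp70l rested on 57 to 171 reads per library, which limits the size of a difference that could be seen there.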

Other observations

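Among the 15 BPA libraries below 48.3 µM, where no chaperone gene was called, hsp70l still varied together with some genes, a pattern noticed after its values were seen and given as a description of libraries that share replicate numbers. The gene with the highest r was HSPA4L (Pearson r = 0.91, Spearman rho = 0.889). Of 17247 genes, 16 had a higher r than hsp70.1 (0.851, rho 0.836), and 6169 a higher r than hsp70.3 (0.133, rho 0.35). The low r of hsp70.3 depends on replicate 3 at 4.83 µM, the library that stood apart. It had 2.78 normalized counts of hsp70.3 and 96.0 of hsp70l. Over all 18 libraries the r of hsp70.3 was 0.933, and 0.98 without that library. Over the 15 libraries it was not computed without that library. Over all 18 libraries the r of HSPA4L with hsp70l was -0.904, since it fell at 48.3 µM BPA, where hsp70l was high. In the 15 TBBPA libraries below 2.92 µM the r was 0.667 for HSPA2, 0.586 for hsp70.3, 0.469 for HSPA4L and 0.442 for hsp70.1. Of 18399 genes, 156, 395, 1250 and 1516 had a higher r than these. By Spearman rho their order was another: 0.482 for hsp70.1, 0.475 for HSPA2, 0.264 for HSPA4L and 0.193 for hsp70.3.

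At 0.000292 µM TBBPA, where hsp70l had 136 and 114 normalized counts in replicates 2 and 3, HSPA2, hsp70.1 and hsp70.3 were also highest in replicate 2, and hspa1b (19.5, 19.0 and 15.2 normalized counts) was not. This order was not particular to that concentration. In the CC, too, replicate 2 was the highest library of hsp70l (76.8), HSPA2 (63.6), hsp70.1 (29.4) and hsp70.3 (24.7). HSPA2 (ENSDARG00000092362) had 54.4, 96.2 and 79.1 normalized counts at 0.000292 µM TBBPA, against 36.8, 63.6 and 40.6 in the CC (log2 fold change 0.70). The gene hsp70.3 had 21.6, 43.1 and 30.4 normalized counts at 0.000292 µM TBBPA, against 16.6, 24.7 and 18.7 in the CC (log2 fold change 0.60, limma adjusted p = 0.700). The change of hsp70.3 did not pass the test, and none is given for HSPA2, which was chosen for its likeness to hsp70l.

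At the 3 lowest concentrations of BPA, all exposed libraries of hspa1b were below all its controls, with none called. It had 8.52, 9.43 and 17.2 normalized counts at 0.00483 µM BPA, 10.2, 13.2 and 17.97 at 0.0483 µM and 15.7, 18.9 and 19.9 at 0.483 µM, against 26.0, 24.4 and 21.7 in the CC. Such a pattern held for 2.79%, 3.14% and 3.68% of the genes tested at these concentrations. HSPA5 had it as well at 0.0483 and 0.483 µM. The comparisons share the same 3 control libraries, so they are not separate observations. In the exposed libraries 1 read was worth 0.904 to 1.28 normalized counts, so the values of hspa1b rest on few reads. At 0.00483 µM BPA the log2 fold change was -1.04 with a limma adjusted p of 1.00.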
